A study of Mus musculus with 2 samples.

Results

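The Msx and Dlx genes are 8 homeobox genes of the limb bud, Msx1, Msx2 and Dlx1 to Dlx6, and were found by Ensembl identifier in both libraries' gene and transcript tables. All 8 had a row, among 43346 Ensembl rows of which 42462 could be named, and they carried 21 transcript rows. The study profiled total RNA longer than 200 nt from limb tissue of B6NCrl mouse embryos at embryonic day 10.5, in pools of both sexes with no other treatment or allele in the labels. There was 1 group of 2 biological replicates, replicate 2 from 51 pooled embryos and replicate 1 from 69, each library made from 10 ng of RNA. The labels name the tissue as limb without saying fore or hind, and each replicate is a pool, so variation between embryos cannot be seen. The design has no contrast, and no p-value is given, since sign flips of 2 values (exact, two-sided) reach 0.5 at best. Spreads are SDs over the 2 libraries, and these may hold pool, dissection and technical variation together.

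Homeobox genes encode transcription factors that bind DNA through a homeodomain. Msx1 and Msx2 are related to the muscle segment homeobox gene of the fly. In the mouse limb they are known as targets of bone morphogenetic protein (BMP) signals, made in mesenchyme and in the apical ectodermal ridge, the thickened edge of ectoderm that drives outgrowth. The Dlx genes are related to the fly gene Distal-less and lie in convergent pairs, each pair with shared enhancers. Mice that lack both Dlx5 and Dlx6 lose the middle of the ridge and have split feet.

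The homeobox, the stretch of 180 bases that encodes the 60 residues of the homeodomain, is what these genes have in common, and it is shown for Msx2 and for the pair of Dlx genes with the highest mean level. Sequences are from the GENCODE M21 transcripts on GRCm38, 5′ to 3′ on the coding strand, and capitals mark each base that differs from Msx2. The Msx2 homeobox lies in exon 2 at chr13:53468370-53468549 (minus strand). That of Dlx5 spans an intron between chr6:6878441-6879657 (minus strand), and that of Dlx3 spans one between chr11:95121767-95123456 (plus strand).
Msx2: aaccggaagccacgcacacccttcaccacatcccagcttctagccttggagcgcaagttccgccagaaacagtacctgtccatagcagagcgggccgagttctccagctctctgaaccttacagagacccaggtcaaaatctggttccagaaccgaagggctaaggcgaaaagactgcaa
Dlx5: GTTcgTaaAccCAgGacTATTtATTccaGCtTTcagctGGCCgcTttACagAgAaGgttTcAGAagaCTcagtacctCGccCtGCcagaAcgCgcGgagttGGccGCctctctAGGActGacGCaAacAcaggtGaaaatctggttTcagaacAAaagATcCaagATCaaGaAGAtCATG
Dlx3: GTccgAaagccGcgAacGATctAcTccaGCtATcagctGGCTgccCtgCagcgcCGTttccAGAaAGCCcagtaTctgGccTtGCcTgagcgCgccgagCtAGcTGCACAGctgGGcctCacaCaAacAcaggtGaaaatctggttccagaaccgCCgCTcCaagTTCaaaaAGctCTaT
The Msx2 homeobox differed from that of Msx1 at 32 of 180 bases, yet 58 of 60 encoded residues were identical. Between an Msx and a Dlx gene, 31 to 36 residues were identical over 12 pairs of genes. Among the Dlx genes this count ran from 47 for Dlx2 and Dlx4 to 58 for Dlx1 and Dlx6, and those last genes belong to different linked pairs. Each Dlx homeobox was split by an intron after 132 bases, with 48 bases in exon 3, whereas each Msx homeobox lay whole in exon 2. Few reads were ambiguous between genes. The tables' posterior SD of the expected count (the estimated number of reads of a gene) was 0 in both libraries for 7 of 8 members, Dlx1 being the exception. The same held for 68.9% of protein-coding genes at 1 TPM or more in both libraries.

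Msx1 was the most abundant member by a wide margin. TPM (a level corrected for transcript length and library total) was 302 in replicate 2 and 311 in replicate 1 for Msx1, an average of 307 ± 5.85 (SD, n = 2). That level ranked 478 in replicate 2 and 463 in replicate 1 among 21474 protein-coding genes. Msx1 (ENSMUSG00000048450.10, chromosome 5, 37820485 to 37824583, GRCm38) held 83.7% of the summed TPM of the 8 genes in replicate 2 and 84.0% in replicate 1. Both libraries thus gave nearly the same level.

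Msx2 (ENSMUSG00000021469.9, chromosome 13, 53466884 to 53473074) stood second, at 35.2 TPM in replicate 2 and 26.9 TPM in replicate 1, on 2294 and 1674 counts. Msx1 exceeded it 8.58-fold in replicate 2 and 11.6-fold in replicate 1. The tables' TPM intervals of the genes did not overlap in either library. Those intervals have no stated level, and the TPM of Msx1 lay just above its own interval in both libraries (291 to 301 in replicate 2 and 299 to 309 in replicate 1), as the interval surrounds the tables' posterior mean (296 in replicate 2 and 304 in replicate 1) and not the deposited TPM.

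The 6 Dlx genes together reached 23.7 TPM in replicate 2 and 32.2 TPM in replicate 1, which is 6.56% and 8.71% of the summed TPM of the 8 genes. With expression called where each library gave at least 1 TPM, 6 of 8 members counted as expressed (Msx1, Msx2, Dlx1, Dlx2, Dlx3 and Dlx5), beside 55.2% of all protein-coding genes. Dlx4 passed it in replicate 1 only and Dlx6 in neither.

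Dlx5 and Dlx6, the pair known for its work in the ridge, differed most within a pair. Dlx5 (ENSMUSG00000029755.9, chromosome 6, 6877805 to 6882085) was the highest Dlx gene at 7.79 TPM in replicate 2 and 8.84 TPM in replicate 1. Dlx6 (ENSMUSG00000029754.9, chromosome 6, 6863334 to 6868568) had 0.510 TPM in replicate 2 and 0.340 TPM in replicate 1, on 17 and 14 counts. Dlx5 thus exceeded its partner 15.3-fold in replicate 2 and 26.0-fold in replicate 1, and the genes lie 9236 nt apart and point towards each other. The Dlx6 values rest on so few reads that the size of this ratio is loose, whereas its direction held in both libraries by non-overlapping intervals.

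Dlx3 and Dlx4 form the next pair, and Dlx3 is known for its part in ectoderm and placenta. Dlx3 (ENSMUSG00000001510.8, chromosome 11, 95120119 to 95125296) had 5.77 TPM in replicate 2 and 7.96 TPM in replicate 1. Dlx4 (ENSMUSG00000020871.8, chromosome 11, 95140447 to 95146263), 15150 nt away, had 0.720 TPM in replicate 2 and 1.55 TPM in replicate 1, on 37 and 76 counts. Again a single gene of the pair carried most of the RNA, by 8.01-fold in replicate 2 and 5.14-fold in replicate 1.

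Dlx1 and Dlx2, best known from the forebrain and the pharyngeal arches, stood close to each other. Dlx1 (ENSMUSG00000041911.3, chromosome 2, 71528113 to 71533981) had 4.81 TPM in replicate 2 and 7.51 TPM in replicate 1. Dlx2 (ENSMUSG00000023391.8, chromosome 2, 71543408 to 71546754), 9426 nt away, had 4.12 TPM in replicate 2 and 6.01 TPM in replicate 1. Their ratio was 1.17 in replicate 2 and 1.25 in replicate 1, with overlapping intervals, so it was the 1 linked pair whose genes were not ordered. Genes that mark inhibitory forebrain neurons, where Dlx1 and Dlx2 are also used, summed to 1.41 TPM in replicate 2 and 1.30 TPM in replicate 1 over 8 genes. None of those 8 reached 1 TPM in both libraries, the highest being Lhx6 at 0.790 and 0.840 TPM, and the transporter gene Slc32a1 had no counts.

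The full order by mean TPM was Msx1, Msx2 (31.1 ± 5.93), Dlx5 (8.32 ± 0.742), Dlx3 (6.87 ± 1.55), Dlx1 (6.16 ± 1.91), Dlx2 (5.07 ± 1.34), Dlx4 (1.14 ± 0.587) and Dlx6 (0.425 ± 0.120), each with its SD over n = 2 libraries. Of 28 pairs of members, 23 were ordered, meaning that their TPM intervals did not overlap in either library and pointed the same way. The 5 that were not ordered were Dlx5 with Dlx3, Dlx5 with Dlx1, Dlx3 with Dlx1, Dlx1 with Dlx2, and Dlx4 with Dlx6. Neighbours in the order from Dlx5 down to Dlx2 therefore could not be told apart, while Dlx3 still exceeded Dlx2 (1.40-fold in replicate 2 and 1.32-fold in replicate 1).

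**Figure D1:**
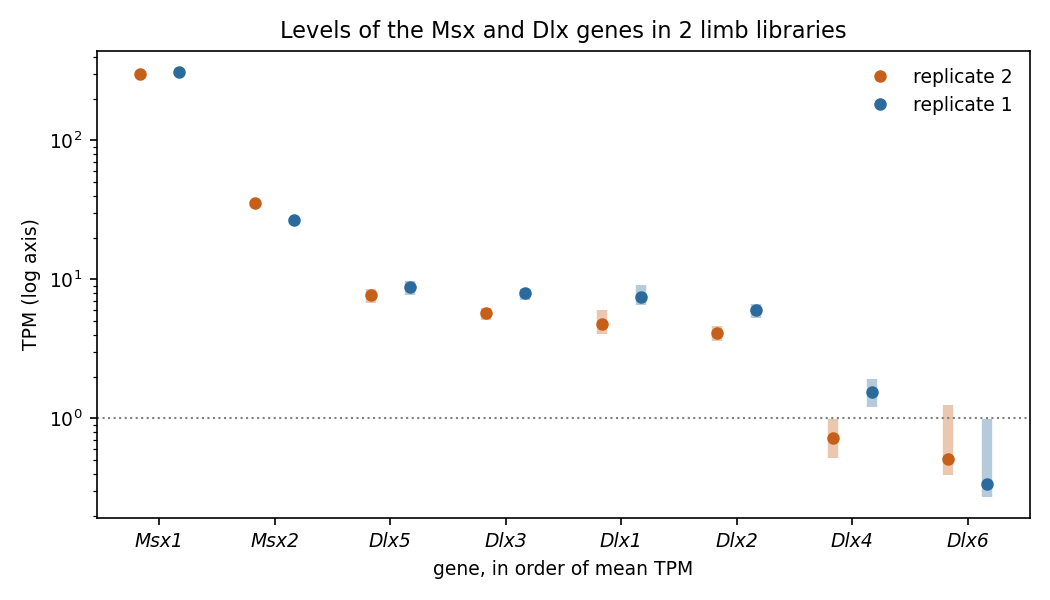
TPM of each gene (log axis) in replicate 2 and replicate 1, with points for deposited TPM, bars for the tables' interval around the posterior mean and a dotted line at 1 TPM. Msx1 stands near 300 TPM, Msx2 near 30, Dlx5, Dlx3, Dlx1 and Dlx2 between 4.12 and 8.84, and Dlx4 and Dlx6 around or below 1.

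Levels alone gave few companions. Over the 2 libraries, the protein-coding genes closest to Msx1 in log2(TPM + 1) were Psmd11, Ak6 and Vdac3, those closest to Msx2 were Slc4a2, Tbc1d9b and Arl8a, and those closest to Dlx5 were Ralgapa2, Gm14435 and Grrp1. Psmd11, for example, had 304 TPM in replicate 2 and 310 TPM in replicate 1, at a distance of 0.00990 from Msx1. With 2 libraries of 1 tissue, this likeness says only that levels were alike.

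The transcripts of Msx1 and Msx2 were mostly the spliced coding form. The spliced Msx1 form took 94.9% of the gene's counts in replicate 2 and 94.6% in replicate 1, and the rest went to a single-exon form (ENSMUST00000183013), annotated as a retained intron, that ends before the homeobox. For Msx2 the single-exon form (ENSMUST00000188606) took 0.742% in replicate 2 and 1.18% in replicate 1. The retained form thus had a larger share in Msx1 than in Msx2 in both libraries. Shares between transcripts are the tables' estimates, since forms of a gene overlap.

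Dlx1 was unlike the other members, with most of its reads on forms other than the spliced coding one. A retained-intron form (ENSMUST00000145088), which keeps the second intron and so interrupts the homeobox, took 146.78 of 269.1 counts in replicate 2 and 236.08 of 429.68 in replicate 1. These are 54.5% and 54.9%. In total RNA, reads from unspliced RNA of any member could not be told apart from its retained-intron forms. The full coding form (ENSMUST00000037119) took 26.7% in replicate 2 and 29.0% in replicate 1. By TPM, which corrects for length, that coding form of 4111 nt held 13.4% of the gene in replicate 2 and 15.5% in replicate 1. Counted over transcripts that hold the whole homeobox, Dlx1 had 34.1% of its counts in replicate 2 and 35.9% in replicate 1. Dlx2, its neighbour, had 100% in both, as did Dlx3 and Dlx6, and Msx1 and Msx2 had 94.6% or more. Dlx5 had 93.3% in replicate 2 and 83.2% in replicate 1, and Dlx4 had 61.3% and 59.2%. All annotated forms of Dlx2 and Dlx3 hold the whole homeobox, so their 100% was fixed by the annotation. Dlx1 has 6 annotated forms, of which 2 hold it, so these shares depend on which forms are annotated.

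A form with a shortened exon 2 is annotated for 2 Dlx genes. In the short form of Dlx1 (ENSMUST00000145444), annotated as a target of nonsense-mediated decay, exon 2 starts 97 nt late, and in that of Dlx5 (ENSMUST00000142635) it starts 82 nt late. What remains is 103 nt in both. Both shortened exons begin inside the homeobox and lose its first 29 bases, and neither removed length is a multiple of 3. The annotated proteins of these forms have 110 residues for Dlx1 and 146 for Dlx5, without a homeodomain, against 255 and 289 residues for the full forms. The sequences below are 30 bases on each side of the inner splice site, read from the full-length transcripts, where lower case is removed and capitals are kept in the short form. Full exon 2 lies at chr2:71530957-71531156 (plus strand) for Dlx1 and chr6:6879526-6879710 (minus strand) for Dlx5, and the short exon at chr2:71531054-71531156 and chr6:6879526-6879628.
Dlx1: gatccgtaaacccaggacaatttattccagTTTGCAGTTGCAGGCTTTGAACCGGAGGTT
Dlx5: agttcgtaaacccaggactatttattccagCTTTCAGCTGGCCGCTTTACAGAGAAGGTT
Both removed stretches end in AG, the letters with which introns end. The same letters stand 103 nt before the end of exon 2 in all 6 Dlx genes, and exon 2 is 185 to 200 nt long among them. Only annotated forms could be quantified. The lack of a short form for Dlx genes other than Dlx1 and Dlx5 therefore says nothing about these libraries. A match of letters is a description and shows no use of a site.

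The short Dlx1 form was given 28.4 counts in replicate 2 and 39.2 in replicate 1, which is 10.6% and 9.12% of the gene. That of Dlx5 was given 19.1 counts in replicate 2 and 51.7 in replicate 1, which is 6.71% and 16.8%. The share was thus lower in replicate 2 for Dlx5 and close for Dlx1. The TPM interval of the short Dlx5 form was 0.0914 to 1.45 in replicate 2. It was 0.670 to 3.01 in replicate 1, and as these overlap, the libraries were not told apart for this form. By deposited TPM, the full form of Dlx5 was nearly equal, at 7.23 TPM in replicate 2 and 7.26 TPM in replicate 1. By that same measure, the median log2 ratio (replicate 2 over replicate 1) was 0.15 over genes whose counts averaged at least 10.

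Dlx4 and Dlx6 also had mixed forms, on few reads. A noncoding Dlx4 form that lacks the homeobox (ENSMUST00000146838) took 38.7% of counts in replicate 2 and 40.8% in replicate 1. Dlx6 counts went to a shorter coding form of 1071 nt and a longer one of 2216 nt. The shorter had 10.88 counts in replicate 2 and 4.41 in replicate 1, and the longer had 6.12 in replicate 2 and 9.59 in replicate 1. The leading form of Dlx6 by counts thus changed between libraries, on 17 and 14 reads in all.

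**Figure D2:**
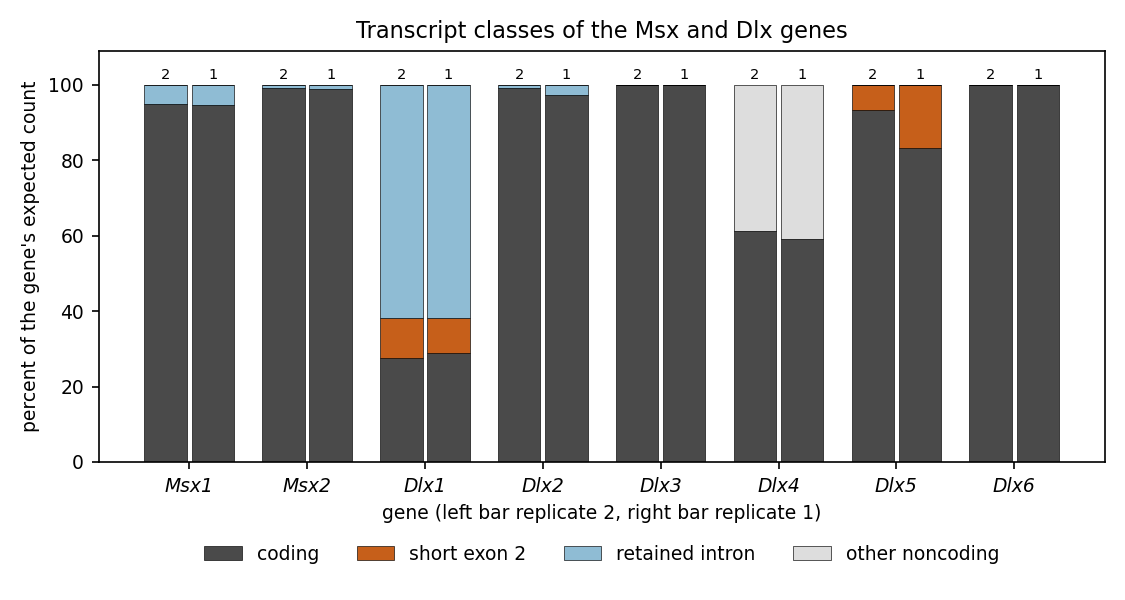
Percent of each gene's expected count by transcript class, left bars replicate 2 and right bars replicate 1, with classes from the annotation and the short exon 2 forms of Dlx1 and Dlx5 drawn apart. Most counts of Dlx1 lie on retained-intron forms in both libraries, and the short exon 2 form takes 6.71% of Dlx5 in replicate 2 and 16.8% in replicate 1.

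Each linked Dlx pair has an antisense RNA gene, of which Dlx6os1 (also called Evf2) is known to act on the Dlx5 and Dlx6 enhancers in the mouse forebrain. Dlx4os overlaps the first exon of Dlx4 by 79 nt of exon on the opposite strand and had 0.710 TPM in replicate 2 and 1.58 TPM in replicate 1, nearly the level of Dlx4 itself. Dlx6os1 (ENSMUSG00000090063.4) spans Dlx6 without sharing exon bases and had 22 counts in replicate 2 and 54 in replicate 1, or 0.190 and 0.480 TPM. A separate short row of the same name had no counts, and Dlx6os2 had 2 counts in replicate 2 and 1 in replicate 1. All of these antisense genes were low.

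Dlx1as shares 335 nt of exon with Dlx1 on the opposite strand, and these genes shared reads. Dlx1 and Dlx1as had the same posterior SD, 3.09 reads in replicate 2 and 2.62 in replicate 1, and their expected counts were fractions that summed to whole numbers, 286 in replicate 2 (269.1 and 16.9) and 447 in replicate 1 (429.68 and 17.32). Whether counting used strand is not given in the sources used here. Dlx1as also spans the whole of Dlx1, introns included, so that without strand, reads from unspliced Dlx1as could not be told apart from the retained-intron forms of Dlx1. The Dlx4 and Dlx4os counts had a posterior SD of 0.

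**Figure D3:**
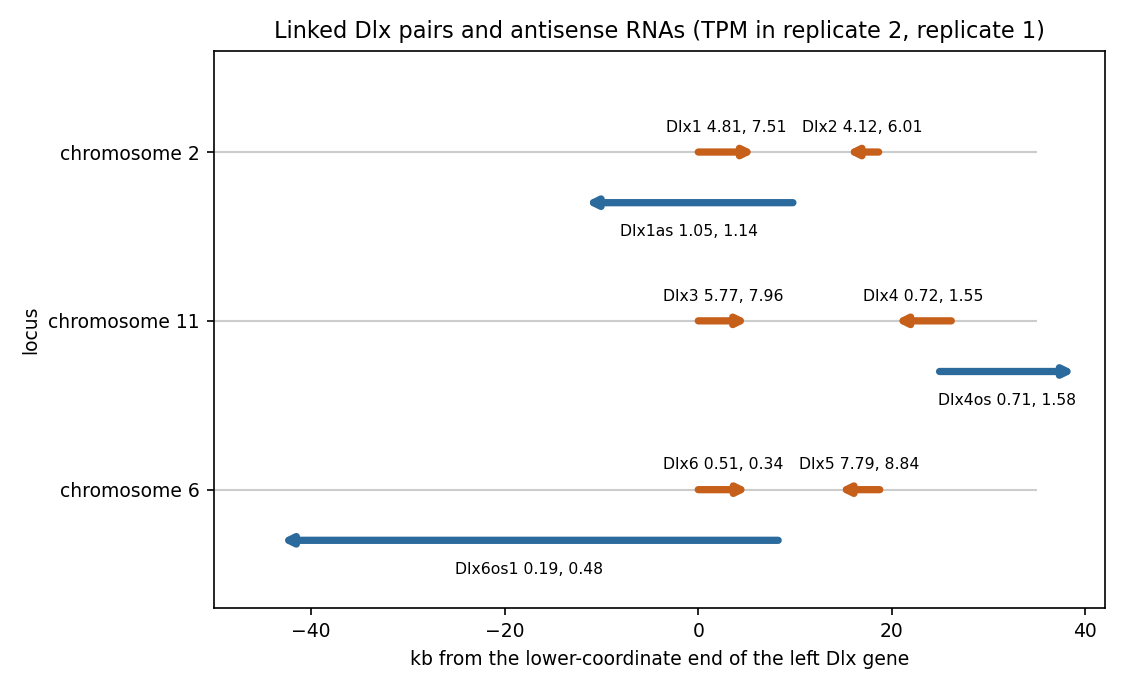
The linked Dlx pairs drawn by distance in kb from the lower-coordinate end of the left gene, with arrows in the direction of transcription and TPM in replicate 2 and then replicate 1 beside each name. In each pair the genes point towards each other, and an antisense RNA gene (blue) overlaps 1 of them.

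Between the libraries, Msx2 was higher in replicate 2 and Dlx1 to Dlx5 were lower under each of the scalings tried, while Msx1 was slightly lower except when scaled to spike-in RNAs. Differences are log2 ratios of expected counts after TMM scaling, replicate 2 over replicate 1, with a 95% exact binomial interval that covers counting error only, since reads without molecular identifiers are not independent molecules. Msx2 stood at 0.25 (0.16 to 0.34) and Msx1 at -0.18 (-0.22 to -0.15). So the Msx genes stood on opposite sides of 0, both by small amounts.

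For the Dlx genes, Dlx1 had 269 rounded counts in replicate 2 and 430 in replicate 1, a log2 difference of -0.88 (-1.11 to -0.66). Dlx2 stood at -0.60 (-0.83 to -0.36), on 264 and 347 counts, and Dlx3 at -0.61 (-0.80 to -0.42), on 402 and 532 counts. Dlx5 was closer to level at -0.32 (-0.55 to -0.08), on 285 and 308 counts. Dlx4 had the largest difference at -1.24 (-1.85 to -0.66), and Dlx6 at 0.076 (-1.03 to 1.21) could not be placed on either side. Both genes of the Dlx1 and Dlx2 pair, and both of the Dlx3 and Dlx4 pair, were thus lower in replicate 2.

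Of the 8 members, 1 (Dlx4) was at least 2-fold lower and 0 were at least 2-fold higher in replicate 2, against 1.79% lower and 4.52% higher among 16742 genes whose counts averaged at least 10. Either way, 6.31% of all genes were that far apart. That share depends on depth: of 4545 genes with mean counts of 10 to under 100, the range that holds Dlx4 and Dlx6, 5.68% were at least 2-fold lower and 13.2% at least 2-fold higher (a split chosen after seeing the data). The counting interval lay below 0 for 6 members and above 0 for 1. Among all 16742 genes it lay below 0 for 26.9% and above 0 for 26.3%, and it excluded 0 for 53.3%, so counting error is small beside the spread between these pools and such an interval is common. The median difference was -0.46 over the 8 members and 0.01 over all genes. Over all of these genes with counts in both libraries, 95% of differences lay between -0.84 and 1.34, a range that Dlx1 and Dlx4 fell below. With no replicate of the difference, pool, dissection and library cannot be told apart. Dlx4 was no longer 2-fold lower when scaled to spike-in RNAs (-0.98), a scaling that moved the median of all genes to 0.27 and put Msx1 at 0.076 and Dlx5 at -0.056.

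Of the antisense RNAs, those of Dlx4 and Dlx6 were lower in replicate 2 as well. Dlx4os stood at -1.29 (-1.96 to -0.66) and Dlx6os1 at -1.5 (-2.29 to -0.76), while Dlx1as at -0.20 (-1.26 to 0.86) could not be placed. Dlx4os and Dlx4 differed by nearly the same factor. Protein-coding neighbours stood on both sides of 0. Metap1d beside Dlx1 stood at 0.34 (0.21 to 0.47), Itga6 beyond Dlx2 at 0.13 (0.02 to 0.23), and Itga3 before Dlx3 at -0.41 (-0.53 to -0.28). Beside Dlx5 and Dlx6, the nearest were Sem1 at -0.19 (-0.23 to -0.14) and Sdhaf3 at -0.07 (-0.24 to 0.10).

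**Figure D4:**
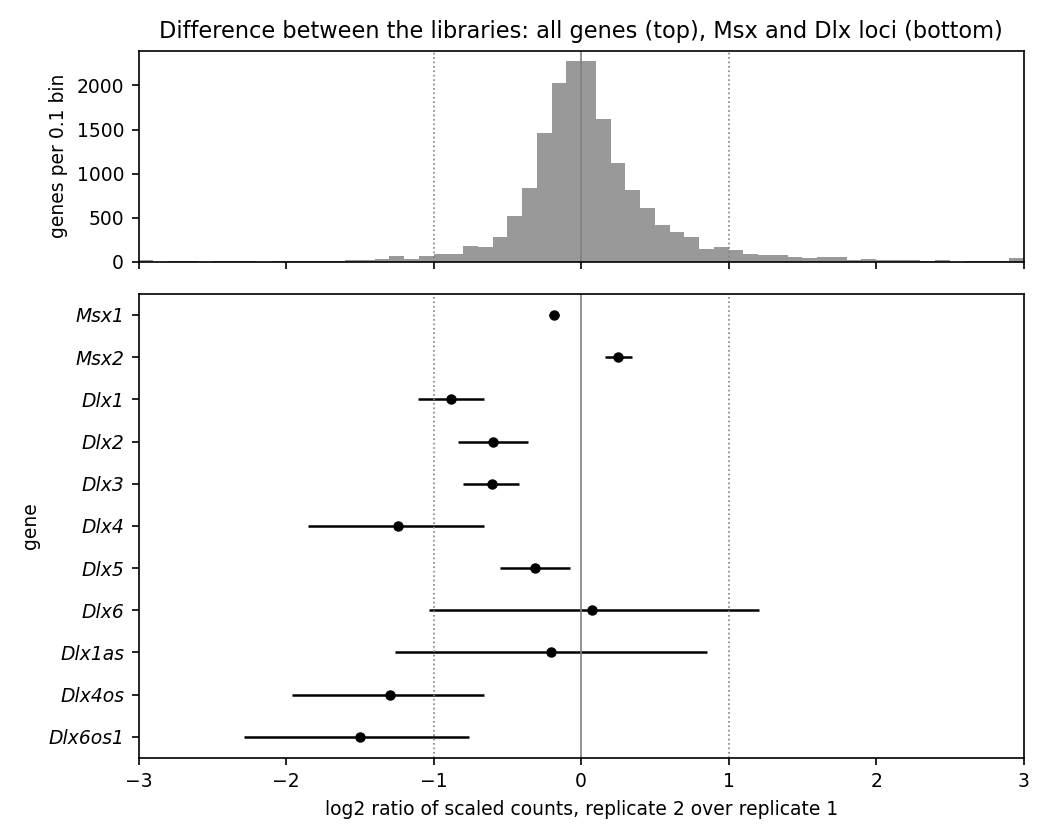
Top, number of genes by log2 ratio of scaled counts (replicate 2 over replicate 1) among the 16742 genes, leaving out those with no counts in 1 library. Other values beyond 3 in either direction are put in the end bins. Bottom, the same ratio for the Msx and Dlx genes and antisense RNAs with 95% counting intervals and dotted lines at 2-fold, where Dlx4, Dlx4os and Dlx6os1 lie beyond the lower line.

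The genes around Msx and Dlx were described as lists. BMP signals are known to switch on Msx genes, and 19 of 22 BMP pathway genes were at 1 TPM or more in both libraries. The ligand gene Bmp4 was highest of the ligands with 59.7 TPM in replicate 2 and 64.4 TPM in replicate 1, and the BMP target Id3 was highest of the list with 399 and 313 TPM. Of the 22, 3 were at least 2-fold higher in replicate 2 and 0 at least 2-fold lower: the joint ligand Gdf5 at 2.42 (2.05 to 2.81) and the antagonists Nog at 2.26 (0.98 to 3.80) and Chrd at 1.81 (1.22 to 2.44). Over all genes, a gap of 2-fold or more favoured replicate 2 for 4.52% and replicate 1 for 1.79%, a background for the later lists too. Nog had 33 counts in replicate 2 and 6 in replicate 1, and Chrd had 121 and 30. Both averaged 10 to under 100, where such a gap favoured replicate 2 for 13.2% of all genes. Gdf5, on 420 and 68 counts, averaged above that range, where the share was 1.29% (0.336% the other way). The median difference of the list was 0.21, with 17 genes higher and 5 lower in replicate 2. Its Bmp ligand genes did not share a direction. Bmp4 (-0.30, -0.38 to -0.23) and Bmp7 (-0.40, -0.48 to -0.31) were lower in replicate 2. Bmp2 (0.86, 0.66 to 1.06) and Bmp5 (0.69, 0.42 to 0.97) were higher.

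A list of ridge genes, genes of the Dlx5 and Dlx6 region and genes of other split-foot loci held 16 genes. Of these, 13 were at 1 TPM or more in both libraries. Trp63, whose protein is known to act on Dlx5 and Dlx6 in the ridge, had 17.9 TPM in replicate 2 and 19.0 TPM in replicate 1, at a difference of -0.16 (-0.26 to -0.06). Fgf8, the main ridge signal, had 65.9 TPM in replicate 2 and 88.5 TPM in replicate 1, at -0.54 (-0.64 to -0.45), which is near Dlx2 and Dlx3. Of the 16, 6 were higher and 10 lower in replicate 2. The ridge signal Fgf4 was at least 2-fold lower (-1.21, -1.56 to -0.87) and 0 were at least 2-fold higher, but the ridge signal Fgf9 was close to it at 0.99 (0.69 to 1.29), on 306 counts in replicate 2 and 134 in replicate 1. Fgf17, on 46 counts in replicate 2 and 28 in replicate 1, stood at 0.51 (-0.20 to 1.24), so the ridge signals did not share a direction. Dync1i1, whose gene holds known ridge enhancers of Dlx5 and Dlx6, was low at 2.35 TPM in replicate 2 and 2.37 TPM in replicate 1, and the median difference of the list was -0.16.

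Among 19 matched partner and co-expressed genes, 18 were at 1 TPM or more. Maged1, which encodes a protein known to bind Dlx5 and Msx2, was highest with 596 TPM in replicate 2 and 493 TPM in replicate 1. The median difference was -0.12, and Hand1 was the only gene of this list at least 2-fold apart (-1.48, -1.78 to -1.19).

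Scaling to spike-ins, which shifts all genes alike, turns the sign of the ridge and partner medians and of the ectoderm median below.

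Markers of other cells differed between the libraries too. All 12 ectoderm markers were at 1 TPM or more, summing to 229 TPM in replicate 2 and 225 TPM in replicate 1, and 8 were lower and 4 higher in replicate 2, at a median difference of -0.14. Krt18 and Krt8, keratins of simple ectoderm, stood at -0.70 (-0.82 to -0.59) and -0.68 (-0.78 to -0.57), close to Dlx1 to Dlx3, while Krt14 and Krt5, keratins of stratifying ectoderm, stood at 2.02 (1.81 to 2.24) and 0.93 (0.81 to 1.04). Mesenchyme markers summed to 1221 TPM in replicate 2 and 879 TPM in replicate 1, with 6 of 10 higher and 4 lower after TMM scaling. Only Col1a2 was at least 2-fold apart, with 212 TPM in replicate 2 and 91.7 TPM in replicate 1 (1.05, 1.02 to 1.08). Twist1, the lowest of the list by level, stood at -0.24 (-0.37 to -0.12). None of these ectoderm and mesenchyme markers was at 0. In bulk tissue, fewer cells of a type and less RNA per cell cannot be told apart, and the part of these markers in the Msx and Dlx differences was not tested.

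The pharyngeal arch list, of tissue where Dlx genes are also used, split. Its 6 markers summed to 59.6 TPM in replicate 2 and 42.9 TPM in replicate 1. Gsc was higher in replicate 2, at 0.63 (0.48 to 0.79). Hand1, Barx1 and Pou3f3 were at least 2-fold lower, with 138 counts in replicate 2 and 334 in replicate 1 for Hand1, 5 and 120 for Barx1, and 2 and 18 for Pou3f3. Barx1 and Pou3f3 averaged 10 to under 100 counts, a range where 5.68% of all genes were lower in replicate 2 by 2-fold or more. None of the 6 markers was at 0 in either library, and Hand1 and Gsc are also used outside the arches. Neural crest and glia markers were higher in replicate 2 for all 4 measured of 6, summing to 26.0 TPM in replicate 2 and 11.2 TPM in replicate 1. Among them, Tfap2b at 1.22 (1.04 to 1.40) and Sox10 at 1.08 (0.56 to 1.62) were at least 2-fold higher. Sox10 had 107 counts in replicate 2 and 44 in replicate 1, in the range where 13.2% of all genes were that much higher. The part of either list in the Dlx differences was not tested.

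Limb identity and other tissues differed as well. Tbx5, which marks forelimb, had 26.4 TPM in replicate 2 and 28.8 TPM in replicate 1, while the hindlimb genes Pitx1 (127 TPM in replicate 2 and 65 TPM in replicate 1) and Tbx4 (41.1 and 19.7 TPM) were higher in replicate 2. The third hindlimb gene, Isl1, had 11.2 TPM in replicate 2 and 9.53 TPM in replicate 1, at 0.14 (-0.04 to 0.31), an interval that spans 0. Cartilage markers summed to 420 TPM in replicate 2 and 195 TPM in replicate 1, and all 6 measured of 7 were higher in replicate 2. Of these, Col2a1 at 1.18 (1.14 to 1.21) and Acan at 2.68 (1.33 to 4.39) were at least 2-fold higher. Acan had 37 counts in replicate 2 and 5 in replicate 1, in the range where 13.2% of all genes were that much higher. Muscle markers summed to 50.8 TPM in replicate 2 and 25.6 TPM in replicate 1, and differed among themselves. Myog (13.4 TPM in replicate 2 and 1.67 TPM in replicate 1) and Myod1 (11.6 and 1.05 TPM), genes of differentiating muscle, were at least 2-fold higher. The precursor genes Pax3, at -0.26 (-0.39 to -0.13), and Lbx1, at -0.83 (-1.08 to -0.58), were lower. Myf5 was higher, at 0.70 (0.52 to 0.89). Pax7, on 19 counts in replicate 2 and 14 in replicate 1, could not be placed at 0.24 (-0.84 to 1.34). Erythroid markers, all 8 lower in replicate 2 after TMM scaling, summed to 9594 TPM in replicate 2 and 11777 TPM in replicate 1, and endothelial markers to 201 and 190 TPM. The part of these tissues in the Msx and Dlx differences was not tested.

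**Figure D5:**
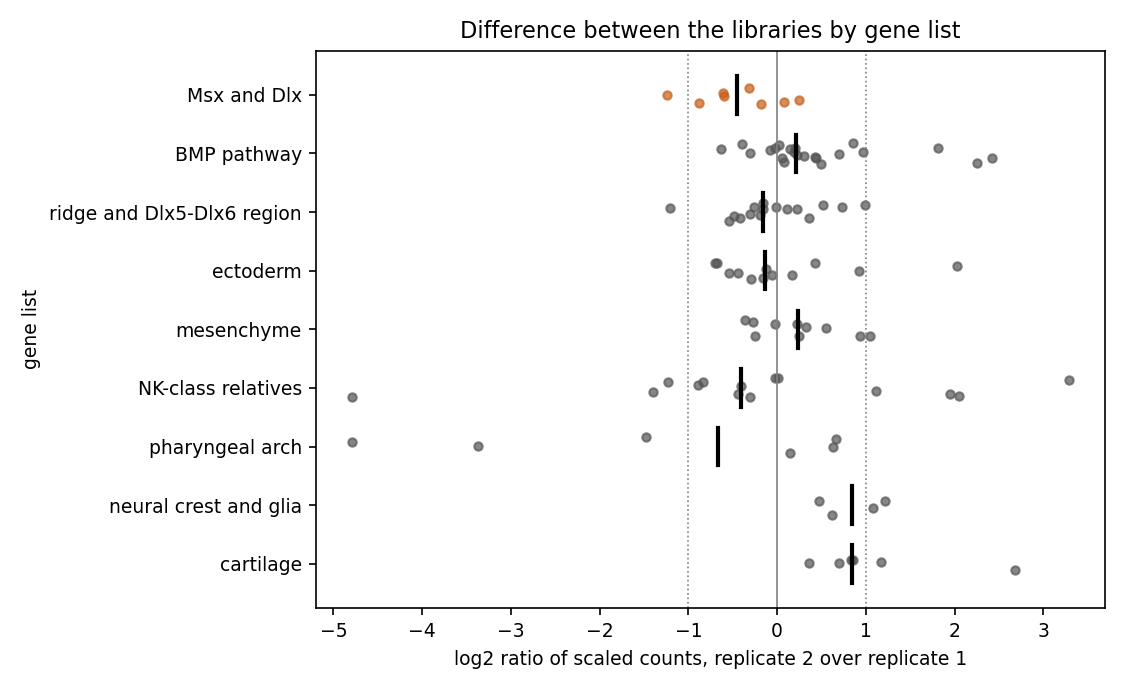
Log2 ratio of scaled counts (replicate 2 over replicate 1) of each gene whose counts averaged at least 10, by list, with a bar at each list's median and dotted lines at 2-fold (Nkx2-3, with no counts in replicate 2, counts in its list's median and has no point). The Msx and Dlx genes have a median of -0.46, beside 0.21 for BMP pathway genes and -0.14 for ectoderm markers. The list labelled ridge and Dlx5-Dlx6 region, which also holds genes of other split-foot loci, has a median of -0.16.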

How the data were processed

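Total RNA of 2 limb pools was analysed from gene and transcript tables. Per the labels' text files, the authors quantified transcriptome alignments on mm10 with GENCODE M4, each library on its own; the sources used here do not give aligner, quantifier or use of strand. The deposited tables hold expected counts (estimated reads), TPM and its posterior mean. The deposited transcript tables also give the percent of a gene's TPM per transcript. Interval bounds of TPM, whose level the tables do not state, and the posterior SD of the count were deposited too and are treated as a score of no fixed range.

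Names, biotypes and coordinates came from GENCODE M21 (GRCm38, the assembly of mm10) by identifier without version, covering 99.7% of counts on Ensembl rows in each library. Rows with numeric identifiers and spike-ins stayed out of library sizes. The tables summed to 43983028 counts in replicate 2 and 40509328 in replicate 1, spike-ins included. The libraries are distinct: their counts differed well beyond sampling noise (chi-square over degrees of freedom 31.3). Expected counts were rounded and scaled by TMM (edgeR 4.0.16, R 4.3.3), with DESeq2 1.42.0 size factors, total counts, spike-ins, TPM ratios and posterior mean counts as alternatives. Differences were given for a mean count of 10 or more with exact (Clopper-Pearson) binomial intervals at 95%, in scipy 1.17.1. The ratio was tested on simulated data. Homeoboxes were located by translating the GENCODE coding sequence (Biopython 1.88), finding a conserved stretch of the third helix of the homeodomain and counting back to its first residue.

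The genes and lists were chosen with earlier results of these data known. The rule for named genes took all members, overlapping antisense RNAs, the nearest coding neighbours, up to 4 highest genes and the lowest of a list, genes at least 2-fold apart, and the 3 genes nearest in level to Msx1, Msx2 and Dlx5. Of other list genes, Bmp2, Bmp5, Bmp7, Dync1i1, Fgf9, Fgf17, Krt5, Lbx1 and Msx3 were chosen after their values were seen. No protein table was used, so whole proteins are not printed. Of the lists, Msx1as, Ventx and Piasy were not matched. Some items are not reported here.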

Additional observations from a re-analysis of the deposited data

How the results depend on the processing

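Except for Msx1, each member's difference kept its sign under every scaling tried (DESeq2 size factors, total counts, spike-in counts, TPM ratio, posterior mean count). Msx1 was at -0.18 and turned to 0.076 when scaled to spike-in counts. That scaling moved the median of all genes from 0.01 to 0.27, so Msx1 stayed below the median. Dlx6 kept its sign but, on 17 and 14 counts, could not be placed on either side of 0. With spike-in scaling Dlx5 stood at -0.056, and members with a counting interval off 0 went from 7 to 6. The TPM ratio moved the median to 0.15. The number of members at least 2-fold apart was 1 and became 0 with spike-in scaling and 0 at a mean count of 100 or more, where Dlx4 is no longer tested. Over all genes, 1056 were at least 2-fold apart, against 198 at a mean count of 100 or more and 5722 with no filter on counts, where fewer and more genes of low count are tested. Expressed members numbered 6, with 7 at a TPM of 0.5, 4 at a TPM of 5, and 6 to 7 when either replicate was left out. Ordered pairs numbered 23, with 21 under a 2-fold rule and 24 to 25 in a single library. Posterior mean TPM put Dlx6 at 0.695 against 0.425, so its level depends on the estimator. No paired analysis was possible because there is only 1 group. Depth limits Dlx4, Dlx6, the antisense RNAs and the rare transcript forms, which rest on 76 reads or fewer in a library.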

Other observations

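Relatives of Msx and Dlx in the NK class of homeobox genes were mostly silent in this tissue. Of 40 matched genes, 6 were at 1 TPM or more in both libraries and 11 had no counts in either, and Msx3, the third Msx gene of the mouse, had 0 counts in replicate 2 and 1 in replicate 1. Emx2, used in the shoulder girdle region, was highest with 10.7 TPM in replicate 2 and 9.99 TPM in replicate 1, so Msx1 and Msx2 stood above all 40 relatives in both libraries. Vax2, Hlx, Hhex, Lbx1 and Emx1 were the others at 1 TPM or more, and Lbx1 marks migrating muscle precursors.

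Several relatives of low count differed between the pools. Of 15 whose counts averaged at least 10, replicate 2 was 2-fold or more above replicate 1 for 4 and below it for 4. All 8 were among the 10 relatives with mean counts under 100, a range in which 18.9% of all genes were 2-fold or more apart either way, and none of the 5 relatives above it was. The split at 100 was chosen after seeing the data. Barx1 had 5 counts in replicate 2 and 120 in replicate 1, Nkx2-3 had 0 and 29, Emx1 had 60 and 122, and Tlx1 had 7 and 16. Dbx2 had 45 counts in replicate 2 and 4 in replicate 1, Barx2 31 and 7, Lbx2 25 and 10, and Nkx3-2, a gene of early cartilage and somite, 19 and 4. Counting intervals of the log2 difference were wide, reaching close to 0 for Lbx2 (0.01 to 2.34) and Tlx1 (-2.92 to -0.03).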
